A study of Mus musculus with 2 samples.

Results

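The genes described here are 10 that code for proteins acting through or beside the tyrosines of the leptin receptor: *Ptpn11* (SHP2), *Grb2*, *Sh2b1*, *Jak2*, *Stat3*, *Socs3*, *Irs1*, *Irs2*, *Ptpn1* (PTP1B) and *Pik3r1*. They were chosen by gene symbol for their known roles, with earlier results of these data known. They have 22 of the 45281 probes of the array and are 10 of 19057 genes named by its probes. The study compared WT mice with littermates homozygous (HOM) for Y123F, in which phenylalanine replaces Tyr985, Tyr1077 and Tyr1138 of LepRb, the long form of the receptor. Both genotypes were female, 12 weeks old and of C57BL/6 background, and the labels give the tissue as ovaries. The change is a knock-in carried by every cell, so an effect in the tissue and one that follows from obesity cannot be told apart. Each genotype was represented by 1 RNA pool and 1 array on an Illumina BeadChip of mouse genes, so there was no replicate error, no test was possible, and each ratio describes these 2 pools.

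Leptin receptors have no kinase of their own. Jak2 is bound to the receptor, is switched on by leptin and adds phosphate to receptor tyrosines, each of which then recruits its own partners. Tyr985 binds SHP2, which leads through Grb2 to Ras and ERK, and it also binds the inhibitor Socs3. Tyr1077 recruits STAT5, and Tyr1138 recruits STAT3, which induces *Socs3*. SH2B1 binds Jak2 itself and links it to IRS proteins and PI3K, a branch that does not need the receptor tyrosines. PTP1B removes phosphate from Jak2. In the hypothalamus this network controls feeding and reproduction. All of it works mainly through protein phosphorylation, which mRNA arrays do not measure.

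A gene's probe counted as detected where its detection p-value was under 0.01. That p-value compares its signal with negative control beads on the same array. Signals are given below as deposited, background-subtracted and not normalized between arrays, and in pairs the WT value comes first. The log2 HOM/WT was computed after background correction, addition of 16 and quantile normalization, and the added value draws ratios of dim probes toward 1. Signals down to 15.1 were detected for WT and down to 15.9 for HOM. Among 2703 genes with several probes detected on both arrays, the SD of log2 HOM/WT within a gene was 0.31, which is the only measure of technical spread here. It compares probes read on the same arrays and pools, so it leaves out error between arrays or pools. It also includes differences between transcripts of a gene. Across the 9819 detected genes the median log2 HOM/WT was 0.04, and other scalings gave 0.06 (median scaling) and 0.28 (no scaling). A ratio near 1 therefore has a sign that depends on the scaling. Most ovarian markers did not bear out the label of ovary. Only 1 of 6 measured granulosa genes (*Inha*, 21.6 and 49.3) and 1 of 6 luteal and theca genes (*Insl3*, 52.3 and 76.4) were detected. Of 10 oocyte genes 3 were detected, *Gdf9* (21.3 and 34.7) on both arrays, *Zp2* for WT alone and *Bmp15* for HOM alone. Among those at background on both arrays were *Star*, *Cyp11a1*, *Foxl2* and *Zp3*. By contrast 12 of 14 uterine and Müllerian genes were detected, though *Hoxa10* and *Emx2* were not, and 7 of 8 smooth muscle genes. Of all 19057 genes, 9819 were detected on at least 1 array. The values below hold for this RNA and may not be readings of ovary.

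*Lepr* itself was not detected. Its brighter probe had a signal of 7.45 in the WT pool and 5.89 in the HOM pool, and its other probe had -6.16 and -3.68. The mRNA of the mutated receptor could thus not be compared, and the arrays do not check the genotype labels. *Lep*, which codes for leptin, was close to the limit, with 15.8 and 21.9, and the adipocyte genes *Adipoq*, *Plin1* and *Fabp4* were not detected on either array. The paper reports *Lep* as raised several-fold in HOM ovaries, *Insl3* as raised and *Cish* and *Timp1* as lowered. Here *Lep* had a log2 HOM/WT of 0.11 (0.22 in the authors' normalized values) and *Insl3* had 0.23. *Cish* had 0.21 and *Timp1* 0.38, both above 0. The array ratios published for these genes were thus not reproduced from the deposited arrays. The paper also reports qPCR changes of each in its published direction, a separate measurement that the arrays do not address.

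Of the 10 genes, 8 were detected, all of them on both arrays. *Grb2* and *Irs1*, each with 1 probe, were not. Of the 22 probes, 15 were detected on both arrays and 7 on neither. None of the 8 detected genes was at least 2-fold higher or lower in the HOM pool, against 1.89% of all detected genes. At a threshold of 1.5-fold 1 of them, *Socs3*, was higher, against 5.23% of all detected genes, and none was lower, against 8.3%. With shares this small, a count of 0 or 1 among 8 genes does not set them apart from the rest. The median log2 HOM/WT of the 8 genes was -0.13, with 3 genes above 0 and 5 below, while 46.1% of all detected genes were below 0. With no scaling 7 genes were above 0 and 1 below, and the median was 0.17. Of all detected genes 26.5% were then below 0, and their median was 0.28. With the mean over a gene's detected probes in place of its brightest probe 4 were above and 4 below, and the median was 0.11.

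**Figure D1:**
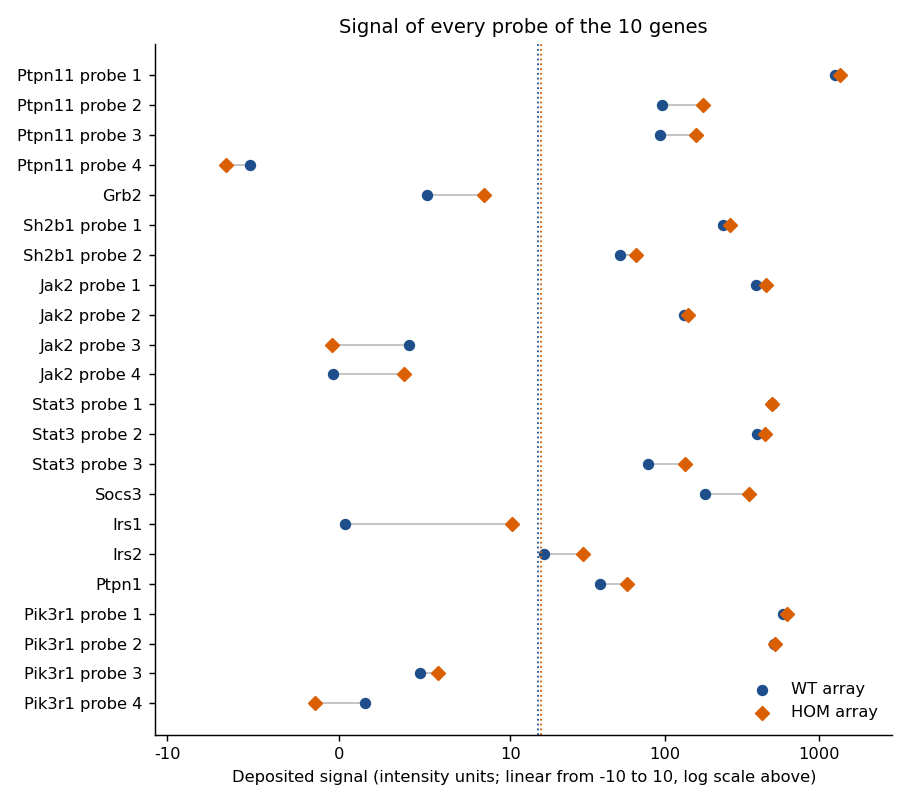
Deposited signal of each of the 22 probes of the 10 genes in the WT pool (circles) and the HOM array (diamonds), in intensity units on an axis that is linear near 0 and logarithmic above 10. Dotted lines mark the dimmest detected signals, 15.1 for WT and 15.9 for HOM, and the *Grb2* and *Irs1* probes lie to their left.

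Because *Socs3* and *Ptpn11* were the only ones of the 10 genes with a match to any of the motifs searched, their promoters are shown first. All 10 genes had a promoter window in the RefSeq table of build GRCm38.p6, 13 windows in all, each running from 250 bases before the start site to 50 after it. The GAS element TTCNNNGAA, the general binding motif of STAT proteins, was in 1 of the 13 windows and in 8.3% of all 32851. Its stricter form TTCCNGGAA, which the GAS search includes, was in none of the 13 and in 1.15% of all. The cyclic AMP response element TGACGTCA was in 1 window, against 1.79%. The forkhead motif TGTTTAC (3.65% of all windows) and the AP-1 motif TGANTCA (7.81%) were in none. Both strands were searched, a match is only a run of letters, and no match says only that these letters are not in this window. The *Socs3* window is at chr11:117969317-117969616 on the minus strand, with the GAS element in capitals starting at base -154 from the start site. The *Ptpn11* window is at chr5:121191348-121191647 on the minus strand, with the cyclic AMP response element in capitals starting at base -67.
Socs3: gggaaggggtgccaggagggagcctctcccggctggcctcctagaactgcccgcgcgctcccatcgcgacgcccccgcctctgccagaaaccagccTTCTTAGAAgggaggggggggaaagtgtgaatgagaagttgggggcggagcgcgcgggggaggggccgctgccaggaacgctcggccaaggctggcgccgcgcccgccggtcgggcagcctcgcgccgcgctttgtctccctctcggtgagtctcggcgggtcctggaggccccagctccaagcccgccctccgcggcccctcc
Ptpn11: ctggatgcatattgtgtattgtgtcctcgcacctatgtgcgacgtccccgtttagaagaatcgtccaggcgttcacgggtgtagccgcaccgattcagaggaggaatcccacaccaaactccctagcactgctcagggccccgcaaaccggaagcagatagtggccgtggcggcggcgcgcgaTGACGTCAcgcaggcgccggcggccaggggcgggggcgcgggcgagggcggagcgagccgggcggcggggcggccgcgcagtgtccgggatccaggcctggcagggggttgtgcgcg

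*Jak2*, the kinase that starts the signal, had nearly the same signal on both arrays. Its brightest probe had 393 in the WT pool and 452 in the HOM pool, a log2 HOM/WT of -0.11. A second probe, annotated to another transcript of the gene, had 133 and 141, a log2 HOM/WT of -0.20. The remaining *Jak2* probes, with 4.09 and -0.403 and with -0.336 and 3.80, were at background. Both detected probes lay between -0.27 and -0.09 relative to the median of all detected genes under every background correction and scaling tried.

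*Sh2b1*, the adaptor that enhances Jak2 activity, was equally steady. Its probes had signals of 238 and 265 and of 51.5 and 65.6, on WT and HOM respectively. The log2 HOM/WT was -0.14 on the brighter probe and 0.07 on the other, both within the spread between probes of one gene. They differed from each other by 0.20, and 56.7% of the 2014 genes with 2 such probes had a gap at least that wide.

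*Stat3*, the transcription factor recruited by Tyr1138, had probes that pointed in opposite directions. The brightest had 500 in the WT pool and 495 in the HOM pool (log2 HOM/WT -0.32), and the next had 398 and 446 (-0.15). The third probe, annotated to another transcript, had 78.2 and 135 (0.43). The range between the probes was 0.75. Of 551 genes with 3 probes detected on both arrays, 18.5% had a range at least that wide, and in 54.6% the probes differed in sign. The mean over the 3 probes was -0.01, so no direction can be given for the gene as a whole. Relative to the median of all detected genes, the first probe ran from -0.38 to -0.30 over the background corrections and scalings and the third from 0.31 to 0.45. With no scaling and no such subtraction the probes had -0.02, 0.16 and 0.68.

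*Socs3*, which blocks Jak2 and competes for Tyr985, had the largest absolute log2 HOM/WT of the 8 detected adaptors and effectors. Its only probe (ILMN_2618176) had a signal of 183 in the WT pool and 351 in the HOM pool. The HOM/WT ratio was 1.52 and the log2 HOM/WT 0.60, short of 2-fold. Of all detected genes, 4.84% had a higher value and 12.6% a larger value in either direction. *Socs3* therefore lay toward the upper edge of the distribution but inside its range of -2.54 to 1.45. The value was 0.67 after median scaling, 0.89 with no scaling and 0.64 in the authors' normalized values. With an offset of 50 it was 0.53, which is under 1.5-fold, so the call at that threshold is lost there. Relative to the median of all detected genes it ran from 0.50 to 0.61, always above 0. With 1 probe and 1 array per genotype, neither a second probe nor a replicate was there to compare.

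*Ptpn11*, which codes for the phosphatase SHP2, also had probes that disagreed. Its brightest probe, far above the others, had 1272 in the WT pool and 1367 in the HOM pool (log2 HOM/WT -0.22). The second had 95.8 and 177 (0.51) and the third 93.8 and 160 (0.41), and the remaining probe was at background, with -5.17 and -6.59. The dimmer pair and the brightest probe were 0.74 apart at most, and 20.1% of the genes with 3 such probes had a range at least that wide. All 3 are annotated to the same transcript. The mean over them was 0.23, against -0.22 for the brightest alone, so the sign for *Ptpn11* depends on which probe stands for the gene.

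*Grb2*, the adaptor between SHP2 and the Ras exchange factor Sos, had signals of 5.15 and 8.45 and was not above background on either array. No fold can be given from this 1 probe.

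**Figure D2:**
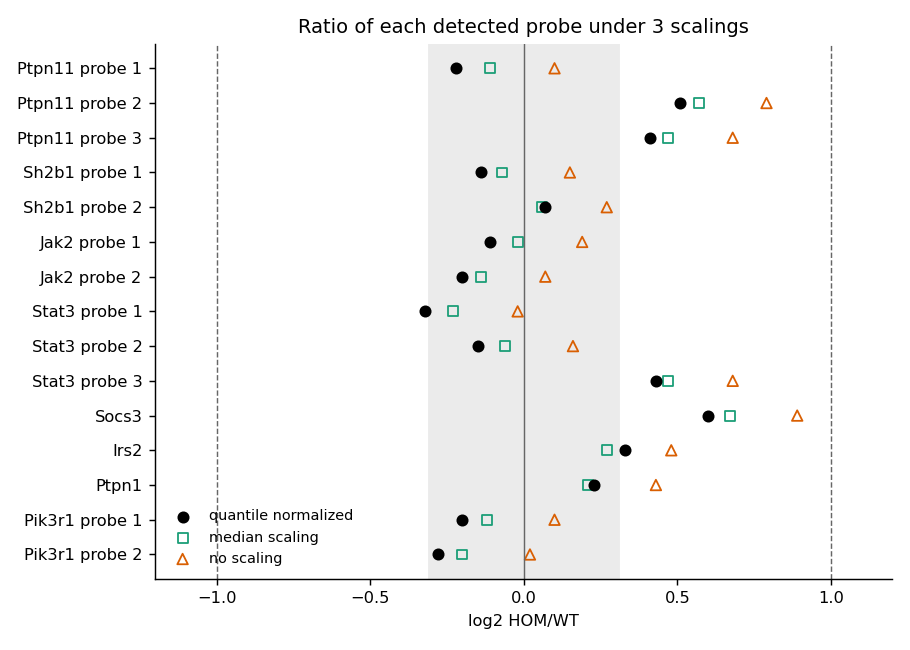
Log2 HOM/WT of the 15 detected probes after quantile normalization (filled circles), median scaling (open squares) and no scaling (open triangles). The grey band spans 1 SD (0.31) of log2 HOM/WT within a gene to either side of 0, and dashed lines mark 2-fold. No probe reaches 2-fold under any of the 3 scalings. After quantile normalization *Ptpn11*, *Stat3* and *Sh2b1* each have probes on both sides of 0, and with no scaling all probes of *Ptpn11* and *Sh2b1* lie above it.

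The genes of the branch from IRS proteins to PI3K were at very different distances from background. *Irs1* had signals of 0.338 and 10.2 and was not detected. *Irs2*, the other widely used substrate of the insulin receptor, had 16.6 in the WT pool, just above the dimmest detected signal, and 29.6 in the HOM pool. Its log2 HOM/WT was 0.33, a value higher than in 79.1% of detected genes, and it ran from 0.15 to 0.52 relative to the median of all detected genes as the background correction changed. Among the dimmest 2455 of the detected genes, where *Irs2* belongs, the central 90% of values ran from -0.64 to 0.62, so 0.33 is well within it.

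*Pik3r1*, which codes for the regulatory p85 subunit of PI3K, had a pair of bright probes that gave like values. One had 583 in the WT pool and 626 in the HOM pool (log2 HOM/WT -0.20), the other, annotated to another transcript, had 509 and 517 (-0.28). They were 0.08 apart, and 81.4% of the genes with 2 such probes had a wider or equal gap. The remaining *Pik3r1* probes, with 4.76 and 5.80 and with 1.50 and -1.38, were at background. Relative to the median of all detected genes both detected probes stayed below 0, between -0.34 and -0.18, a size close to the spread between probes.

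*Ptpn1*, which codes for the Jak2 phosphatase PTP1B, had 38.1 in the WT pool and 56.9 in the HOM pool. Its 1 probe gave a log2 HOM/WT of 0.23, within the spread between probes, and 29.8% of detected genes had a higher value. The 3 genes above 0 by their brightest probe were thus *Socs3*, *Irs2* and *Ptpn1*, each measured by 1 probe, and *Irs2* and *Ptpn1* were the dimmest of the 8.

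**Figure D3:**
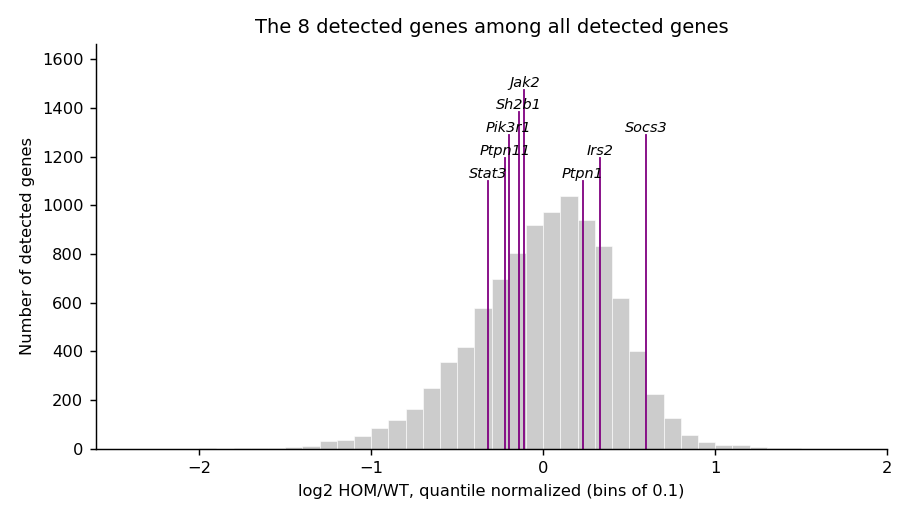
Number of detected genes by log2 HOM/WT after quantile normalization, in bins of 0.1, with vertical lines at the brightest probe of the 8 detected genes. *Socs3* at 0.60 lies nearest an edge and 4.84% of detected genes lie above it, while the other 7 lie between -0.32 and 0.33.

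The wider pathway was described through 10 further lists of genes from general knowledge, 145 measured genes in all besides the 10. Of these, 100 were detected, 2 were at least 2-fold higher in the HOM pool (0.407% of all detected genes were) and none was at least 2-fold lower (1.49%). Their median log2 HOM/WT was 0.00, close to that of all detected genes.

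Of 8 measured other Janus kinases and STATs 7 were detected and their median log2 HOM/WT was -0.01, with none past 2-fold. *Tyk2* had 214 and 207 (log2 HOM/WT -0.32) and *Jak1*, which pairs with many cytokine receptors, had 179 and 182 (-0.25, and -0.78 on its second detected probe). *Jak3*, a kinase of lymphocytes, had 36.2 and 51.9 (0.19, and 0.56 on its second). *Stat4* was above background for HOM alone, at least 1.18-fold higher. Such a bound is taken against the dimmest signal detected for the other genotype and makes no allowance for measurement error.

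Of 19 measured other SOCS proteins and brakes of the pathway 14 were detected, 9 of them below 0 and none past 2-fold, beside the 46.1% of all detected genes that were below 0. Their median was -0.26, with -0.13 as the mean over probes. With no scaling it was 0.03, against 0.28 for all detected genes. *Socs5* had 153 and 105 (log2 HOM/WT -0.74), and *Dusp6*, a phosphatase of ERK that ERK signaling induces, had 626 and 496 (-0.64, and -0.45 on its second detected probe). *Ptpn6*, the SHP1 phosphatase of blood cells, had 114 and 200 (0.47, and 0.04 on its second). *Socs4* was at least 1.51-fold lower by its brightest probe, but its other detected probe had a log2 HOM/WT of 0.58.

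Of 16 measured docking and adaptor proteins 11 were detected, with a median of -0.03 and none past 2-fold. *Nck1* (223 and 154, log2 HOM/WT -0.77) and *Crk* (691 and 552, -0.63) link tyrosine kinases to the cytoskeleton. *Irs3*, an insulin receptor substrate of rodent fat, was above background for HOM alone, at least 1.08-fold higher. *Dok2*, a docking protein of blood cells, had 42.1 and 63.8 (0.25).

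In the branch from Ras to ERK, beyond *Grb2*, 8 of 14 measured genes were detected. Of these 7 were below 0, beside 46.1% of all detected genes, a count over few genes that was not tested. Their median of -0.31 was -0.28 with genes seen on 1 array at their bound. With no scaling it was -0.10, against 0.28 for all detected genes. *Rasa1*, which switches Ras off, had 430 and 269 (log2 HOM/WT -0.94), close to 2-fold. *Sos2*, which switches Ras on and binds Grb2, had 36.9 and 18.8 (-0.77, and -1.24 in the authors' normalized values). *Rps6ka3*, a kinase activated by ERK, had 46.1 and 40.0 (-0.35), and *Spred1*, an inhibitor of Ras signaling, had 217 and 210 (-0.32). Each of these 4 had 1 probe.

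The branch from PI3K to Akt had values on both sides of 0. Of 28 measured genes 17 were detected, 12 above 0 and 5 below, beside 46.1% of all detected genes below 0. Their median was 0.05 and none was past 2-fold. With no scaling the median was 0.30, against 0.28 for all detected genes. *Rictor*, of the kinase complex that activates Akt, had 213 and 174 (log2 HOM/WT -0.54) and *Rheb*, the activator of mTOR, had 768 and 667 (-0.52). *Tsc2*, the inhibitor of Rheb, had 502 and 871 (0.46, and 0.34 on its second detected probe). *Pik3cd*, the catalytic subunit of leukocytes, had 26.6 and 53.0 (0.51).

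Of 14 measured receptors that use the same effectors 9 were detected. Of these 7 were below 0, beside 46.1% of all detected genes, again over few genes and not tested. Their median of -0.36 was -0.23 as the mean over probes and -0.23 at a detection p-value below 0.05. With no scaling it was -0.07, against 0.28 for all detected genes. *Pdgfra*, a growth factor receptor of stromal cells, had 1363 and 1074 (log2 HOM/WT -0.65). *Egfr* had 575 and 455 on its brightest probe (-0.64), with -0.38, 0.17 and 0.02 on the others. The insulin receptor *Insr* had 292 and 251 (-0.48), and the growth hormone receptor *Ghr* had 110 and 99.2 (-0.38). None was past 2-fold.

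Genes that STAT3 is known to induce included the only pathway genes past 2-fold. Of 27 measured 24 were detected, 15 above 0 and 9 below, beside 46.1% of all detected genes below 0. Their median was 0.25 against 0.04 for all detected genes, and their range was -0.65 to 1.29. With no scaling these medians were 0.51 and 0.28. *Lif*, a cytokine of the interleukin 6 family, had 18.0 and 77.4 (log2 HOM/WT 1.29, and 1.08 on its second detected probe). *Junb*, a component of AP-1, had 161 and 503 (1.26). The transcription factor *Cebpb* had 399 and 856 (0.76), and *Lcn2*, an iron-carrier protein of neutrophils and epithelia, had 39.2 and 84.7 (0.67). *Lif* and *Junb* were already known to be high in the HOM pool when the list was written, so their count is no independent evidence, and many of these genes also respond to signals other than STAT3. *Stat3* itself had no common direction over its probes.

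Of 10 measured early targets of ERK 7 were detected and none reached 2-fold. Their median of 0.20 was 0.09 as the mean over probes. With no scaling it was 0.41, against 0.28 for all detected genes. *Srf* had 486 and 731 (log2 HOM/WT 0.27), *Atf3*, a stress-induced factor, had 19.6 and 35.9 (0.39), *Dusp4* was at least 1.13-fold higher and *Etv4* at least 1.12-fold lower in the HOM pool. None of the 5 measured hypothalamic targets of leptin, *Pomc*, *Npy* and *Cartpt* among them, was detected.

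**Figure D4:**
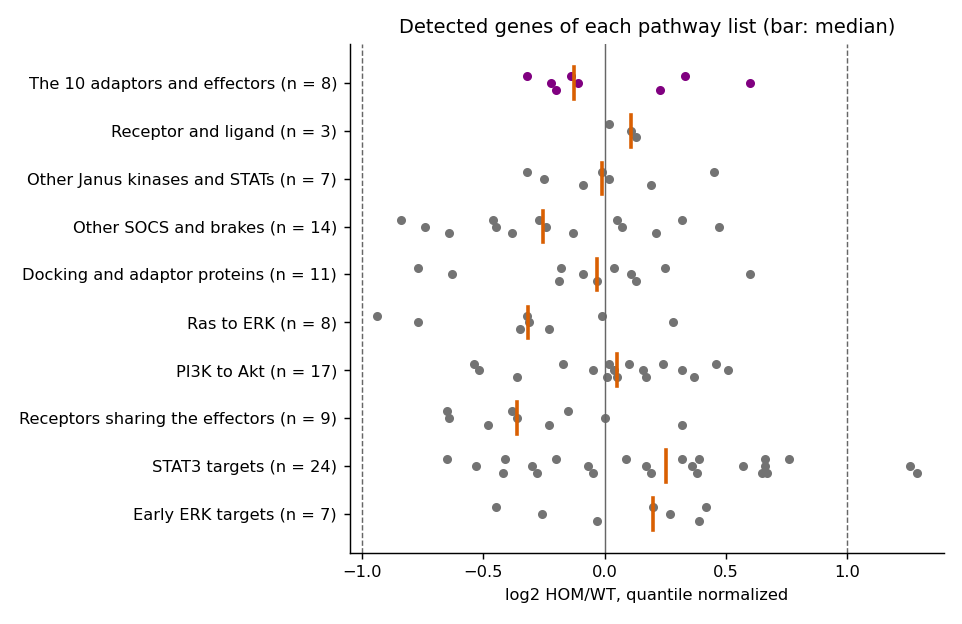
Log2 HOM/WT after quantile normalization of each detected gene of the 10 adaptors and effectors and of the pathway lists with a detected gene, 1 point per gene, with an orange bar at the median and dashed lines at 2-fold. Only *Lif* and *Junb* among the STAT3 targets lie beyond a dashed line, and the medians run from -0.36 for receptors that share these effectors to 0.25 for STAT3 targets.

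Leukocytes also express *Socs3* and many of the pathway genes, so their markers are given here. Of 8 measured 5 were detected, 3 above 0 and 2 below, beside 46.1% of all detected genes below 0. Past 2-fold was 1 of them, *Cd3e*, higher in the HOM pool, as were 0.407% of all detected genes. The signals of all 8, deposited without scaling, summed to 1015 in the WT pool and 1736 in the HOM pool, most of it from *Lyz2* (841 and 1471, log2 HOM/WT 0.48, and -0.14 on its second detected probe). The T cell genes *Cd3e* had 19.9 and 72.6 and *Cd3g* 45.4 and 90.1, while the macrophage gene *Adgre1* had 61.9 and 59.9, the neutrophil gene *S100a8* had 19.7 and 20.6, and the leukocyte markers *Ptprc* and *Itgam* were at background on both arrays. In RNA of whole tissue, more cells of a type and more RNA per cell cannot be told apart, and the part of leukocytes in the values of *Socs3* and the other genes was not tested.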

How the data were processed

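RNA labelled as from ovaries of WT and HOM mice was hybridised as 1 pool per genotype, 1 array each. The Methods describe RNA of 3 mice mixed per group and the supplement's heading 6 ovaries of 6 mice, so how many mice a pool holds is not settled. The authors deposited background-subtracted probe intensities from GenomeStudio, not normalized between arrays, each with a detection p-value against negative control beads. A further table deposited by the authors holds normalized intensities of these arrays, and it differed by at most 1.57 from quantile normalization of the first table. No software version is given in the sources used here.

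Of 45281 probes 34885 carried 1 gene symbol in the platform annotation, 18 carried several and 10378 were not listed, and only the first were used. Intensities were corrected with limma 3.58.1 (normexp, background from the detection p-values) in R 4.3.3, with an offset of 16, then taken to log2 and quantile normalized. The brightest probe stood for a gene. With 1 array per genotype a rule of size was used, namely a HOM/WT ratio past 2-fold in either direction for a gene that 1 or both arrays detected. It was tested on simulated data, with changes planted only in bright probes. Changes in dim genes and differences between animals were not covered there. The number of arrays, 2, limits the precision. WT signals of detected probes had a median of 89.0 and HOM signals of 99.2, with 32.9% and 34.4% of probes detected. The members and lists were chosen with earlier results of these data known. All 10 genes with every probe, *Lepr*, *Lep*, and in each other list the genes past 2-fold and up to 4 detected genes with the largest absolute ratio are named, with marker genes as examples, and other genes named were chosen after their values were seen. The alternatives tried were no background correction, an offset of 50, median scaling, no scaling, the authors' normalized values, the mean over probes, other detection rules and other folds. Promoter windows came from RefSeq (GRCm38.p6), and protein and probe sequences were not used here.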

Additional observations from a re-analysis of the deposited data

How the results depend on the processing

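No paired analysis was possible because each genotype has 1 array, and for the same reason no array could be left out. None of the 8 detected adaptors and effectors was past 2-fold under any background correction, scaling, probe rule or detection rule tried. Past 1.5-fold was 1 of them, *Socs3* (log2 HOM/WT 0.60, but 0.53 with an offset of 50). The median log2 HOM/WT of the 8 detected genes was 0.17 with no scaling and 0.11 with the mean over probes, against -0.13. For all detected genes it was 0.28 with no scaling and 0.04 with the mean over probes. Over all detected genes, 40 were higher and 146 lower at 2-fold. The counts were 4 and 48 with an offset of 50, 365 and 469 with no background correction, 152 and 50 with no scaling, 365 and 470 in the authors' normalized values, 514 and 815 at 1.5-fold, and 0 and 8 at 3-fold. Of the other pathway genes, 2 were higher and 0 lower. The higher count was 1 with an offset of 50, 8 at 1.5-fold and 0 at 3-fold, and the lower count was 3 with no background correction, 3 in the authors' normalized values and 10 at 1.5-fold. The cause of these shifts was not tested. *Ptpn11* had a log2 HOM/WT of -0.22 from its brightest probe, 0.10 with no scaling and 0.23 as the mean over probes. Signal over background limits *Grb2*, *Irs1* and *Lepr*, whose probes were not detected.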
